A study of Mus musculus with 7 samples.

Results

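The 40 genes described here are markers of cells other than the endometrial epithelium, read in RNA from mouse uterine cells that had been selected for the epithelial surface protein EPCAM. They were chosen by name as a measure of RNA carried over from other cells, and they are 40 of the 53379 genes in the count tables. By cell type they comprise 8 genes of stromal fibroblasts, 6 of smooth muscle, 3 of pericytes, 6 of endothelium, 3 of mesothelium and 10 of immune cells. The remaining 4, Cldn11, Alas2, Fabp4 and Ovgp1, stand alone as markers. The mutant group was 4 libraries, each from 1 CD-1 mouse of 120 days with the genotype LtfCre0/+; Brg1fl/fl. In these mice Cre recombinase under control of lactoferrin (Ltf), a gene of the uterine epithelium, acts on floxed Brg1, the chromatin remodelling ATPase whose symbol is Smarca4. The control group was 3 libraries of wild-type CD-1 endometrial epithelium, each from pooled mice of an age not given in the sources used here, and all were reanalysed from earlier work. Genotype, library set and pooling therefore cannot be told apart.

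The uterine epithelium lines the lumen and the glands and rests on a stroma of fibroblasts, blood vessels with their pericytes, and resident immune cells. Outside the stroma lies the smooth muscle of the myometrium, covered by mesothelium. When a whole uterus is minced and digested, RNA of all these cells is in the same suspension as the epithelium. Marker genes were used as a measure of how much of it reached each library. Expression of a marker by the epithelium itself would be counted in the same way and was not tested.

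Gene reads numbered 12436971 to 13364080 in the mutant libraries and 21372036 to 25862245 in the control libraries. Levels are given as counts per 1000000 gene reads (CPM). A level of 3 reads, used as the floor, is 0.224 to 0.241 CPM in the mutants and 0.116 to 0.140 CPM in the controls, and covers counting error only. Smarca4 was at 90.1, 59.1, 99.1 and 129 CPM in mutants 1 to 4, against 230, 217 and 238 CPM in the controls, and it fell (log2 fold change -1.64 ± 0.23 SE, edgeR adjusted p = 0.00967). Epcam, the gene of the selection, was at 654 to 861 CPM in the mutants and 727 to 822 CPM in the controls (edgeR adjusted p = 0.206). A reference list of 10 epithelial genes summed to 9830 to 12127 CPM in the mutants and 15320 to 18313 CPM in the controls, and 2 of the 10, Cdh1 and Krt8, fell.

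The 40 markers together held 799, 623, 628 and 550 CPM in mutants 1 to 4 and 830, 697 and 632 CPM in controls 1 to 3. These sums were 0.0550% to 0.0830% of the gene reads of a library. They cover only the listed genes and are not the share of RNA carried over. The further immune genes described below held 0.0895% to 0.342% of gene reads, and the further fibroblast genes 0.0316% to 0.163%. The groups overlapped, since mutant 1 was above 2 of the 3 controls. Among these markers, immune genes were the largest group in each library, at 326 to 532 CPM in the mutants and 348 to 440 CPM in the controls. That order depends on which genes are listed. In control 3, further fibroblast genes summed to 1634 CPM and further immune genes to 1456 CPM, while in every other library the further immune sum was larger.

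Of the 38 markers with enough reads to test, 2 fell in the mutants, Dcn and Fabp4, and 0 rose. That is 5.26% of them, while 6.18% of all 14610 tested genes fell and 5.37% rose, so the share called was near the background. Without the threshold, 31 of the 38 (81.6%) had a negative fold change and 7 a positive one, beside 46.5% negative among all tested genes. An unadjusted edgeR p under 0.05 was reached by 7 (18.4%), beside 31.0% of all tested genes. These 7 were Dcn, Fabp4, 2 smooth muscle, 2 mesothelial and 1 immune gene, and 0 pericyte or endothelial genes. DESeq2 gave an adjusted p for 35 of the markers and called 4 lower (11.4%), adding the mesothelial Msln and the immune Cd3e, and 0 higher, beside 11.3% and 12.4% of all genes it tested. The median log2 fold change of the 38 was -0.65, beside 0.06 over all tested genes. Fold changes are on the trimmed-mean (TMM) scale, whereas CPM values are per gene reads. Scaling to total counts moved the median of all tested genes to 0.41 and that of the markers to -0.33. In the bulk RNA measured here, fewer cells of a type and less RNA per cell cannot be told apart.

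**Figure D1:**
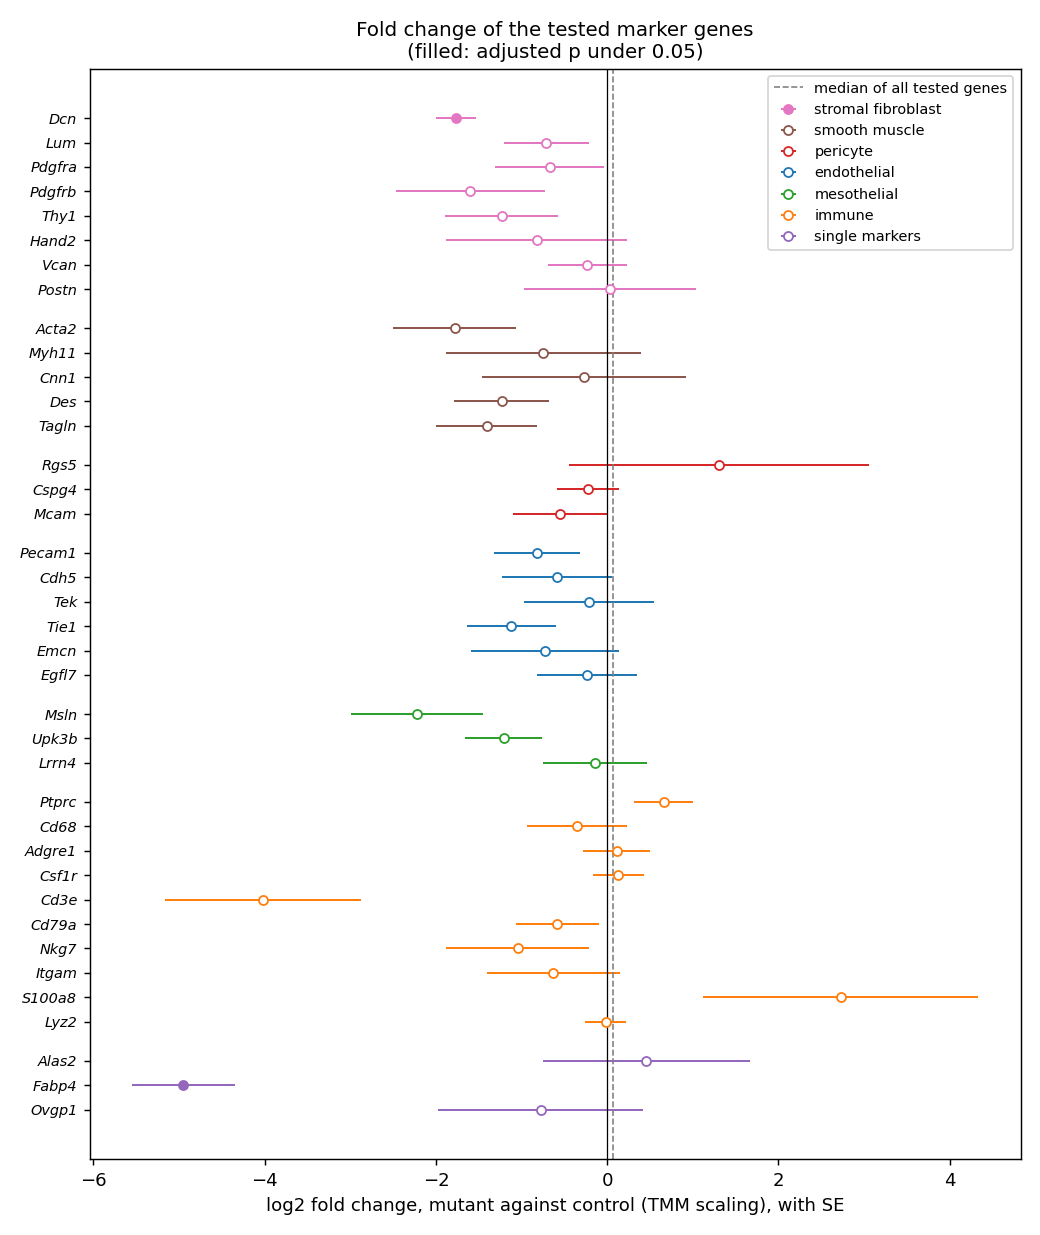
Log2 fold change of each of the 38 tested markers, mutant against control, on the TMM scale with its standard error, ordered and coloured by cell type; the dashed line is the median of all tested genes, 0.06. Filled points are the genes past an adjusted p of 0.05, Dcn and Fabp4, and most open points lie left of 0 with wide errors.

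By ranges alone, 5 of the 38 tested markers (13.2%) had every mutant library below every control library in CPM, Dcn, Pdgfrb, Acta2, Cd3e and Fabp4, beside 8.55% of all tested genes. A single marker, Ptprc (2.63%), had every mutant above every control, beside 27.0% of all tested genes. On TMM-scaled CPM the numbers were 9 lower (23.7%) and 0 higher, beside 16.1% and 15.4% of all tested genes. The added genes were Pecam1, Tie1, Msln and Upk3b, while Ptprc overlapped on that scale.

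Mutant 1 stood apart for many of these genes. Without it, 9 of 37 tested markers (24.3%) fell and 0 rose, beside 14.0% and 15.5% of all genes tested in that fit. These 9 were Dcn, Acta2, Myh11, Des, Tagln, Cd3e, Nkg7, Fabp4 and Ovgp1. Leaving out any other single library gave 1 to 4 markers lower. The authors' deposited table, made with DESeq2, lists 4 of the 38 markers for which it has an adjusted p as lower (10.5%), beside 8.34% of all its genes, and 0 as higher, beside 8.85%. The 4 in the authors' deposited table are Dcn, Msln, Cd3e and Fabp4, with adjusted p of 0.0121, 0.0424, 0.00325 and 1.59e-05.

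**Figure D2:**
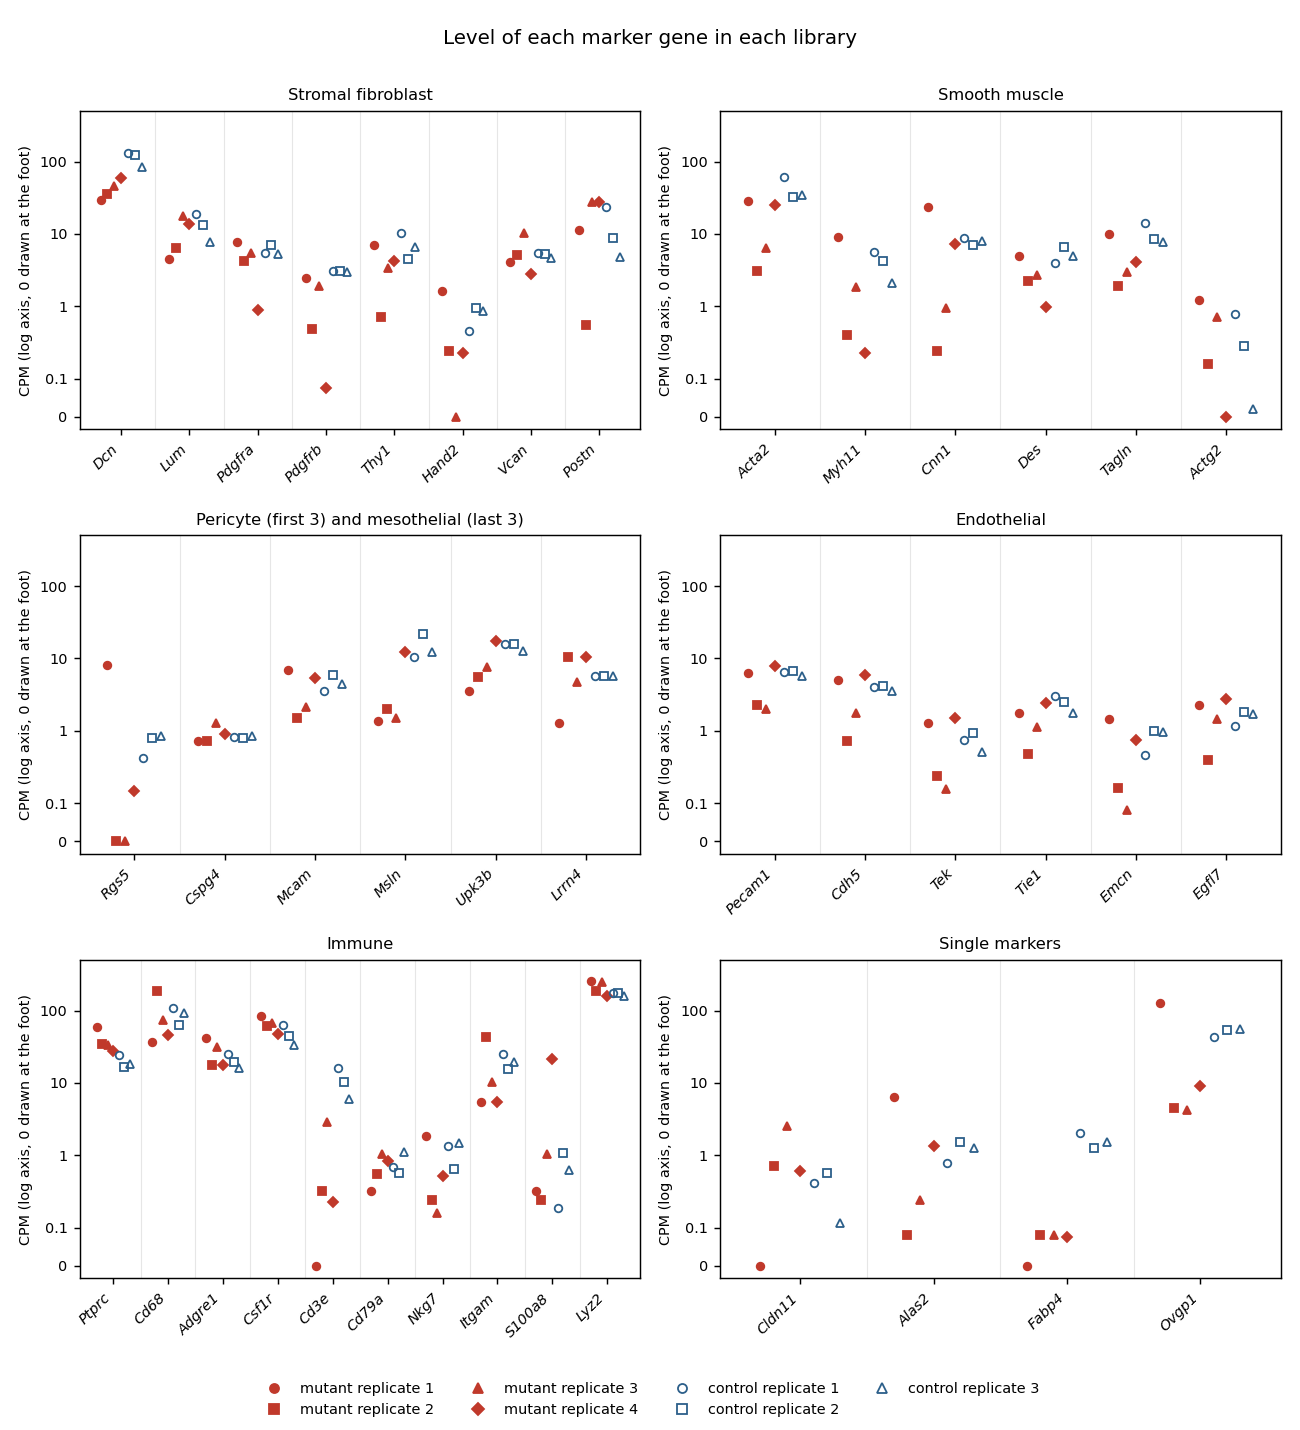
Level of each of the 40 markers in every library, in CPM on a log axis with 0 drawn at its foot, by cell type, with a symbol for each library, filled for mutants and open for controls. The controls lie close together for most genes, while the mutants spread widely, with mutant 1 highest for each of the 6 smooth muscle genes. Controls are pools of mice with more gene reads and mutants are single mice, so the 2 spreads are not directly comparable.

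Levels of different genes were compared per kilobase of exon (reads per kilobase of exon and 1000000 gene reads, RPKM). In the controls, the highest marker was the macrophage lysozyme gene Lyz2, at 129 RPKM, above 97.8% of tested genes. Cd68 followed at 69.9 RPKM, then Acta2 at 19.3 RPKM and Dcn at 19.2 RPKM, and Acta2 and Dcn did not differ beyond their ranges. Epcam and Cdh1 measured 354 and 498 RPKM on the same scale. The lowest markers in the controls were Cspg4, Emcn, Rgs5 and Tek, between 0.0692 and 0.154 RPKM. Endothelial markers reached 1.01 RPKM at most and pericyte markers 1.37 RPKM, below the leading markers of each other cell type. In the mutants Lyz2 and Cd68 again led, at 161 and 68.1 RPKM, and Acta2 and Dcn were at 7.15 and 7.28 RPKM.

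**Figure D3:**
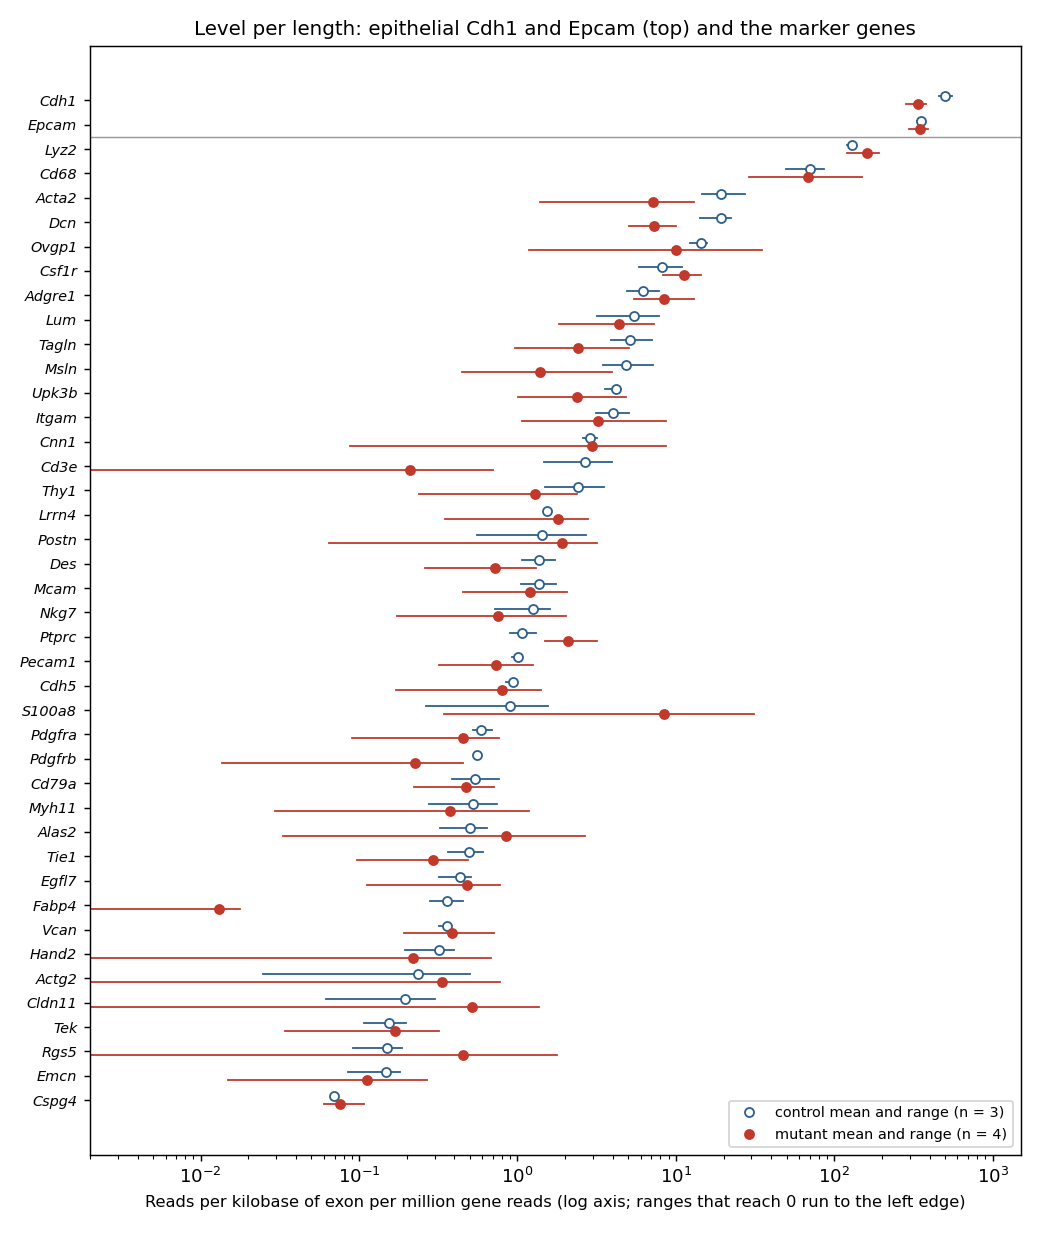
Mean level per kilobase of exon of Cdh1, Epcam and the 40 markers, ordered by the control mean, with lines for the range over the 3 control and 4 mutant libraries on a log axis. Lyz2 and Cd68 lie nearest to the epithelial genes, while the pericyte and endothelial markers fill much of the lower part.

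Among the fibroblast genes, 1 of 8 fell and 0 rose, with a median log2 fold change of -0.77. Dcn, which encodes the collagen-binding proteoglycan decorin and lies on chromosome 10 from 97479609 to 97518143 (GRCm38), was at 29.6, 36.0, 45.9 and 58.5 CPM in mutants 1 to 4, against 129, 123 and 83.4 CPM in the controls. Every mutant library was below every control library. The means were 42.5 ± 12.6 CPM (SD, n = 4) and 112 ± 25.0 CPM (SD, n = 3). In edgeR the log2 fold change was -1.77 ± 0.24 SE, with an adjusted p of 0.00888. The call was lost when control 1 was left out (edgeR adjusted p = 0.0612) or control 2 (0.0545). In those fits 84 and 112 of all tested genes fell, against 903 with all libraries.

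None of the other 7 fibroblast genes passed. Postn, which encodes the matrix protein periostin, was at 11.3, 0.560, 27.6 and 27.3 CPM in the mutants and 23.5, 8.84 and 4.83 CPM in the controls. Both groups spanned a wide range, and mutants 3 and 4 were above every control (log2 fold change 0.03 ± 1.0 SE, edgeR adjusted p = 0.987). Lum, encoding the proteoglycan lumican, was at 4.50, 6.32, 17.8 and 13.9 CPM in the mutants and 19.0, 13.2 and 7.81 CPM in the controls. The Lum ranges overlapped (edgeR adjusted p = 0.367).

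Pdgfrb, a platelet-derived growth factor receptor of fibroblasts and pericytes, was at 2.49, 0.480, 1.92 and 0.0748 CPM in the mutants and 3.04, 3.09 and 2.98 CPM in the controls. The controls agreed closely and all mutants were lower, but the mutants spread so widely that the difference did not pass (log2 fold change -1.60 ± 0.87 SE, edgeR adjusted p = 0.254). Its relative Pdgfra was at 7.72, 4.24, 5.43 and 0.898 CPM in the mutants and 5.53, 6.97 and 5.22 CPM in the controls, with mutant 1 above every control, mutant 3 among them and mutants 2 and 4 below. Thy1, a surface glycoprotein of fibroblasts and T cells, ran from 0.719 to 7.08 CPM in the mutants and 4.45 to 10.5 CPM in the controls. Vcan, the proteoglycan versican, ran from 2.77 to 10.3 CPM and 4.60 to 5.53 CPM. Hand2, a transcription factor of the uterine stroma, had no read in mutant 3, 3 reads each in mutants 2 and 4, and 1.61 CPM in mutant 1.

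The 8 fibroblast genes summed to 68.4, 53.6, 112.3 and 108 CPM in mutants 1 to 4 and to 197, 166 and 116.4 CPM in the controls. Mutants 3 and 4 lay just under control 3, without overlap. Dcn alone made up 42.5 of the mean of 85.6 CPM in the mutants and 112 of 160 CPM in the controls. The control mean was 1.87-fold the mutant mean. On TMM-scaled CPM it was 2.41-fold. Set against the reads of the epithelial list, which were fewer in the mutants, the log2 difference shrank from -0.90 in CPM to -0.33. On that scale the groups overlapped, at 4.93 to 11.4 in the mutants and 6.36 to 11.9 in the controls per 1000 epithelial reads.

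A further 16 fibroblast genes, listed by name, held 15 that could be tested. Of these 1 fell, the transcription factor gene Twist2, with 0.241 to 0.479 CPM in the mutants and 1.01 to 1.16 CPM in the controls (log2 fold change -2.0 ± 0.39 SE, edgeR adjusted p = 0.0236). Twist2 did not pass with no filter on low counts (edgeR adjusted p = 0.0811) and had too few reads to test with unstranded counts. Col1a1, a chain of type I collagen, was at 44.2, 52.2, 166 and 46.8 CPM in the mutants and 143, 186 and 151 CPM in the controls. Mutant 3 was within the control range and the other mutants were below it (edgeR adjusted p = 0.0978). Mutant 3 was the highest mutant for 10 of these 16 genes. The 16 genes summed to 316 to 947 CPM in the mutants and 873 to 1634 CPM in the controls, with overlap.

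Smooth muscle genes were counted in both groups, and 0 of the 5 that could be tested passed, with a median log2 fold change of -1.23. Acta2, the smooth muscle actin, was at 28.5, 3.04, 6.31 and 24.9 CPM in mutants 1 to 4 and 60.3, 32.2 and 34.4 CPM in the controls. All mutants were below all controls, with mutants 2 and 3 far below mutants 1 and 4 (log2 fold change -1.78 ± 0.72 SE, edgeR adjusted p = 0.143).

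Tagln, which encodes the actin-binding protein transgelin, was at 10.1, 1.92, 2.96 and 4.12 CPM in the mutants and 14.2, 8.52 and 7.77 CPM in the controls. Mutant 1 lay within the control range and the others below it (edgeR adjusted p = 0.152). Cnn1, encoding calponin, was at 23.7, 0.240, 0.959 and 7.26 CPM in the mutants and 8.67, 7.11 and 7.89 CPM in the controls. Mutant 1 was far above every control, and mutants 2 and 3 were far below them (log2 fold change -0.27 ± 1.19 SE, edgeR adjusted p = 0.898).

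Mutant 1 was the highest mutant for 6 of the 6 smooth muscle markers, including Myh11 (smooth muscle myosin, 9.01 CPM), Des (the filament protein desmin, 4.90 CPM) and Actg2 (enteric actin, 1.21 CPM). The lowest mutant was mutant 2 for 3 of the 6 (Acta2, Tagln and Cnn1) and mutant 4 for the other 3. Actg2 had too few reads to test. Without mutant 1, 4 of the 5 tested genes fell, Acta2 (-2.27, adjusted p = 0.0478), Myh11 (-2.62, 0.0447), Des (-1.71, 0.0330) and Tagln (-2.11, 0.00942), by edgeR, and the median of the 5 became -2.11. Leaving out the highest mutant lowers the mutant mean by construction, so these values only describe the weight of mutant 1. In that fit 14.0% of all tested genes fell. The 6 genes summed to 77.4, 7.99, 15.5 and 37.5 CPM in the mutants and 93.6, 58.9 and 57.1 CPM in the controls.

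Of 10 further muscle genes, 6 could be tested and 0 passed, with 2 at an unadjusted edgeR p under 0.05 and a median of -0.90. Smtn, encoding smoothelin and the most abundant of them, was at 15.0, 59.6, 62.2 and 64.0 CPM in the mutants and 120, 88.9 and 127 CPM in the controls (edgeR adjusted p = 0.0631). Smtn was lowest in mutant 1, the library in which the smooth muscle markers above were highest. Of the 8 further muscle genes over the floor in any library, mutant 1 was the highest mutant for 4 (Myl9, Tpm2, Synpo2 and Itga8) and the lowest for 2.

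**Figure D4:**
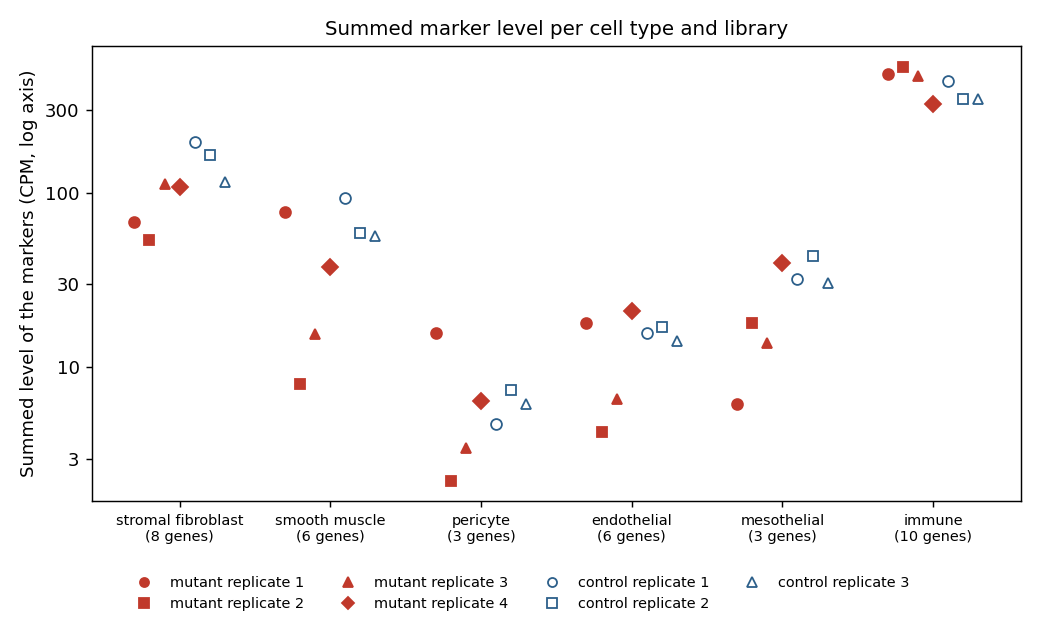
Summed CPM of the markers of each cell type in every library on a log axis, with a symbol for each library, filled for mutants and open for controls. The fibroblast sums, of which Dcn is the largest part in the controls, do not overlap. The smooth muscle sum of mutant 1 lies among the controls, and the immune sums overlap.

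Pericytes wrap small vessels, and 0 of their 3 markers passed, with a median log2 fold change of -0.22. Rgs5, a regulator of G protein signalling that marks pericytes, was at 8.04, 0, 0 and 0.150 CPM in mutants 1 to 4 and 0.415, 0.795 and 0.851 CPM in the controls. In reads these values were 100, 0, 0 and 2 against 9, 17 and 22. Mutant 1 alone was above the controls, and the other mutants were under the floor, so the positive fold change (1.30 ± 1.75 SE, edgeR adjusted p = 0.650) came from 1 library. Kcnj8 and Abcc9, subunits of the vascular potassium channel, were at 0.884 and 0.804 CPM in mutant 1 and at or under 0.0748 CPM in the other mutants.

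Mcam, an adhesion molecule of pericytes and endothelium, was at 6.91, 1.52, 2.16 and 5.39 CPM in the mutants and 3.50, 5.85 and 4.45 CPM in the controls. Mutant 1 was above the controls, mutant 4 within their range, and mutants 2 and 3 below (edgeR adjusted p = 0.540). Cspg4, the NG2 proteoglycan, was nearly level, at 0.719 to 1.28 CPM and 0.795 to 0.851 CPM. Of 5 further pericyte genes only Notch3, a Notch receptor, had enough reads to test. Notch3 was at 16.9, 22.4, 32.3 and 31.0 CPM in the mutants and 9.55, 8.89 and 11.4 CPM in the controls, and it rose (log2 fold change 1.0 ± 0.25 SE, edgeR adjusted p = 0.0456). The call was lost with unstranded counts (edgeR adjusted p = 0.158) and with no filter on low counts (0.102). The mutant libraries were in another order than for Rgs5, with mutant 1 lowest.

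Endothelial cells line the vessels. All 6 of their markers had negative fold changes, with a median of -0.66, and 0 passed. Pecam1, the junctional protein CD31, was at 6.27, 2.24, 2.0 and 7.78 CPM in mutants 1 to 4 and 6.41, 6.69 and 5.72 CPM in the controls. Mutants 1 and 4 reached the control level, and mutants 2 and 3 were at less than any control (log2 fold change -0.82 ± 0.50 SE, edgeR adjusted p = 0.310). Cdh5, vascular endothelial cadherin, was at 5.07, 0.719, 1.76 and 5.91 CPM in the mutants and 4.06, 4.16 and 3.56 CPM in the controls.

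The same order held for the receptor kinases Tek and Tie1, the sialomucin gene Emcn and the secreted factor gene Egfl7. In 6 of 6 endothelial markers, mutants 1 and 4 were both above mutants 2 and 3. Tie1 was at 1.77, 0.480, 1.12 and 2.39 CPM in the mutants and 3.0, 2.53 and 1.78 CPM in the controls (edgeR adjusted p = 0.185). Tie1 overlapped in CPM through mutant 4. Egfl7 shares 337 exon bases with other genes on its strand, so its counts are less certain. The 6 genes summed to 18.1, 4.24, 6.55 and 21.1 CPM in the mutants and 15.8, 17.1 and 14.2 CPM in the controls.

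Of 14 further endothelial genes, 12 could be tested, with a median of -0.46, and 1 rose. This was Flt1, a receptor for vascular endothelial growth factor, at 6.27, 29.8, 42.6 and 44.5 CPM in the mutants and 5.12, 4.12 and 4.87 CPM in the controls (log2 fold change 2.32 ± 0.59 SE, edgeR adjusted p = 0.0461). Flt1 was high in mutants 2 and 3, where Pecam1 and Cdh5 were low, and in mutant 4, where all 3 genes were at their highest, and it was lowest in mutant 1. Kdr, the gene of the other main receptor of that factor, was at 1.93, 1.04, 1.44 and 3.59 CPM in the mutants and 1.98, 2.62 and 1.62 CPM in the controls. Mutants 1 and 4 were both above mutants 2 and 3 for 9 of the 14 genes.

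Mesothelium is the outer covering of the uterus, and 0 of its 3 markers passed, with a median log2 fold change of -1.21. Msln, which encodes mesothelin, was at 1.37, 2.0, 1.52 and 12.2 CPM in mutants 1 to 4 and 10.6, 21.9 and 12.1 CPM in the controls. Mutants 1 to 3 were far below the controls and mutant 4 lay among them (log2 fold change -2.22 ± 0.77 SE, edgeR adjusted p = 0.103). Without mutant 4 the fold change was -3.47 (edgeR adjusted p = 0.0177). Mutant 4 was the highest mutant for Msln, so leaving it out lowers the mutant mean by construction. In that fit 556 of all 14824 tested genes fell.

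Upk3b, a uroplakin of mesothelium, was at 3.54, 5.60, 7.51 and 17.1 CPM in the mutants and 16.0, 15.9 and 12.6 CPM in the controls. Mutant 4 was above every control and the other mutants were below them (log2 fold change -1.21 ± 0.45 SE, edgeR adjusted p = 0.121). Without mutant 4 Upk3b fell (-1.72, edgeR adjusted p = 0.0361), and this omission again lowers the mutant mean by construction. Lrrn4, a leucine-rich repeat gene, was at 1.29, 10.3, 4.71 and 10.4 CPM in the mutants and 5.67, 5.66 and 5.76 CPM in the controls. Lrrn4 went above the controls in mutants 2 and 4 and below them in mutants 1 and 3 (edgeR adjusted p = 0.898). For 3 of 3 mesothelial markers mutant 4 was the highest mutant and mutant 1 the lowest.

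Of 8 further mesothelial genes, 7 could be tested. All 7 had negative fold changes, with a median of -1.92, and 1 fell. This was the transcription factor gene Bnc1, at 0.402, 0.240, 0.719 and 1.50 CPM in the mutants and 3.32, 2.85 and 3.83 CPM in the controls, without overlap (log2 fold change -2.60 ± 0.55 SE, edgeR adjusted p = 0.0286). Mutant 4 was the highest mutant for 6 of these 8 genes. Mutant 1 was the lowest for only 1 of them, and mutant 2 was lowest or tied for lowest for 5.

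Of the 10 immune markers 0 passed, 6 had negative and 4 positive fold changes, and the median was -0.19. Lyz2, lysozyme of macrophages and neutrophils, was the most abundant, at 253, 186, 249 and 159 CPM in mutants 1 to 4 and 175, 176 and 159 CPM in the controls. The groups overlapped (log2 fold change -0.02 ± 0.24 SE, edgeR adjusted p = 0.964). Lyz2 shares 15.4% of its 50-base words with its neighbour Lyz1, and reads in those stretches could be lost to multimapping.

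Cd68, a lysosomal glycoprotein of macrophages, was at 36.3, 187, 73.6 and 45.3 CPM in the mutants and 108, 62.8 and 92.5 CPM in the controls, with mutant 2 above every control (edgeR adjusted p = 0.717). Csf1r, the receptor for macrophage colony-stimulating factor, was at 83.6, 61.4, 66.9 and 48.0 CPM in the mutants and 63.5, 44.7 and 33.9 CPM in the controls (edgeR adjusted p = 0.805). Mutant 1 was highest for Csf1r and lowest for Cd68, so these macrophage genes ordered the mutants differently.

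Adgre1, the macrophage antigen F4/80, followed the order of Csf1r in that mutant 1 was highest, at 42.1 CPM, within a mutant range of 17.5 to 42.1 CPM and a control range of 16.0 to 25.4 CPM. Itgam, the integrin CD11b of myeloid cells, followed Cd68 in that mutant 2 was highest, at 43.5 CPM, beside 5.39 to 10.1 CPM in the other mutants and 15.7 to 25.5 CPM in the controls. Itgam shares 66.3% of its 50-base words with Gm49368, which overlaps it, so its counts are uncertain. Cd14, a lipopolysaccharide co-receptor, was the most abundant of 27 further immune genes, at 309, 3027, 1624 and 901 CPM in the mutants and 1181, 956 and 1208 CPM in the controls. Per kilobase the control mean of Cd14 was 644 RPKM, above Epcam and Cdh1, while that of Ptprc was 1.06 RPKM. Which cells the Cd14 reads came from was not tested. Cd14 too was highest in mutant 2 and lowest in mutant 1, whereas the complement gene C1qa was at 93.4, 48.8, 87.9 and 43.8 CPM in the mutants, with mutant 1 highest.

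Ptprc, the pan-leukocyte antigen CD45, was at 58.4, 34.5, 33.3 and 27.3 CPM in the mutants and 24.0, 16.4 and 18.0 CPM in the controls. All mutants were above all controls in CPM, with a log2 fold change of 0.66 ± 0.34 SE that did not pass (edgeR adjusted p = 0.232). On total-count scaling it was 0.98 (edgeR adjusted p = 0.0610). Of the 19 further immune genes tested, 15 had positive fold changes, beside 7820 of all 14610 tested genes. Their median was 0.27, and 0 passed, with 3 at an unadjusted edgeR p under 0.05. With total-count scaling 2 of the 19 rose, Cd53 and Coro1a, beside 2202 of all 14610 tested genes.

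Cd3e, a signalling chain of the T cell receptor complex on chromosome 9 from 44998740 to 45009627 (GRCm38), had 0, 4, 36 and 3 reads in mutants 1 to 4 and 350, 220 and 156 reads in the controls. In CPM these were 0, 0.320, 2.88 and 0.224 against 16.1, 10.3 and 6.03. No mutant reached the lowest control, and mutant 3 held most of the mutant reads. The log2 fold change of -4.02 ± 1.14 SE just missed the threshold in edgeR (adjusted p = 0.0617) and passed without mutant 1 or without mutant 3. Mutant 3 was the highest mutant for Cd3e, so leaving it out lowers the mutant mean by construction. In the fit without mutant 3, 374 of all 14933 tested genes fell.

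Cd3e stood apart from the other T cell genes. Cd3d and Cd3g, which encode the partner chains of the same complex, were at 0.0387 to 0.138 CPM and 0.116 to 0.277 CPM in the controls, where Cd3e was at 6.03 to 16.1 CPM. The receptor constant gene Trbc2 was at 0.155 to 0.369 CPM in the controls. Cd3d had no read in any mutant library. Per kilobase, the control means were 2.65 RPKM for Cd3e, 0.0497 RPKM for Cd3d and 0.0544 RPKM for Cd3g. The level of Cd3e in the controls was therefore not matched by Cd3d, Cd3g or Trbc2. Trbc2 shares 44.0% of its 50-base words with Trbc1, so its counts are uncertain, and which part of Cd3e its reads cover cannot be read from counts per gene.

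The B cell receptor component gene Cd79a stayed between 0.322 and 1.12 CPM in every library. Nkg7, a granule protein of cytotoxic lymphocytes, was at 1.85 CPM in mutant 1, at or under 0.524 CPM in the other mutants, beside a control range of 0.655 to 1.47 CPM. S100a8, a calcium-binding protein of neutrophils, was at 0.322, 0.240, 1.04 and 21.6 CPM in the mutants and 0.184, 1.08 and 0.619 CPM in the controls. Mutant 4 alone was high for S100a8, and the positive log2 fold change (2.73 ± 1.61 SE, edgeR adjusted p = 0.289) became -0.54 without that library.

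S100a9 and Csf3r, also neutrophil genes, were high in the same library. S100a9, the partner of S100a8, was at 38.5 CPM in mutant 4 and at 0.161 to 1.84 CPM in the other mutants. Csf3r, the receptor for granulocyte colony-stimulating factor, was at 32.5 CPM in mutant 4 and 4.64 to 5.87 CPM in the other mutants, beside 3.33 to 4.24 CPM in the controls. The myeloid gene Itgam and Lyz2, of macrophages and neutrophils, were not high in mutant 4. Lyz2 was lowest there among the mutants (159 CPM), while Itgam was nearly level in mutants 4 and 1 (5.39 and 5.47 CPM).

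The 10 immune genes summed to 481, 532, 469 and 326 CPM in the mutants and 440, 348 and 348 CPM in the controls. The direction depended on the scale. The log2 difference of the means was 0.26 in CPM, -0.07 on TMM-scaled CPM and 0.84 per read of the epithelial list. For all 40 markers the values in that order were -0.15, -0.48 and 0.42. The epithelial list, by which the last values are divided, was itself at 0.672 of its control mean in the mutants.

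Among the 4 markers that stand alone, Fabp4 fell. Fabp4, the fatty acid binding protein of adipocytes, capillary endothelium and macrophages, lies on chromosome 3 from 10204088 to 10208576 (GRCm38). It was at 0, 0.0799, 0.0799 and 0.0748 CPM in the mutants and 2.03, 1.26 and 1.55 CPM in the controls. All mutants were under the floor and all controls above it. Pooled, 3 mutant reads stood against 111 control reads, a level 27.3-fold higher in the controls (95% exact interval 9.10 to 134, counting error only). The fitted log2 fold change was -4.95 ± 0.60 SE (edgeR adjusted p = 0.00685) and depends on the prior count of the fit. Adipoq, the adipocyte hormone adiponectin, was at most at 0.234 CPM in any library, and the fat droplet genes Plin1 and Cidec had no reads.

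Ovgp1 encodes oviductal glycoprotein of the oviduct epithelium, and so marks another epithelium. It was at 125, 4.56, 4.23 and 9.20 CPM in mutants 1 to 4 and 43.5, 53.2 and 56.4 CPM in the controls. Mutant 1 was above every control and the other mutants were far below them (log2 fold change -0.78 ± 1.20 SE, edgeR adjusted p = 0.695). Without mutant 1 Ovgp1 fell (-3.44, edgeR adjusted p = 0.00220), beside 14.0% of all genes tested in that fit. Leaving out its highest mutant lowers the mutant mean by construction. Ovgp1 shares 26.6% of its 50-base words with the overlapping Gm42890, so its counts are uncertain.

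Alas2, the haem synthesis enzyme of red cell precursors, was at 6.43, 0.0799, 0.240 and 1.35 CPM in the mutants and 0.784, 1.54 and 1.28 CPM in the controls. Mutant 1 alone was above the controls (edgeR adjusted p = 0.830). Of 6 other erythroid genes 0 had enough reads to test. The globin gene Hbb-bs had 0.0804 CPM in mutant 1, a single read, and none elsewhere. Hbb-bs shares 53.2% of its 50-base words with Hbb-bt, so reads can be lost to multimapping. Cldn11, a tight junction claudin, had too few reads to test and was at 0, 0.719, 2.56 and 0.599 CPM in the mutants and 0.415, 0.561 and 0.116 CPM in the controls.

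**Figure D5:**
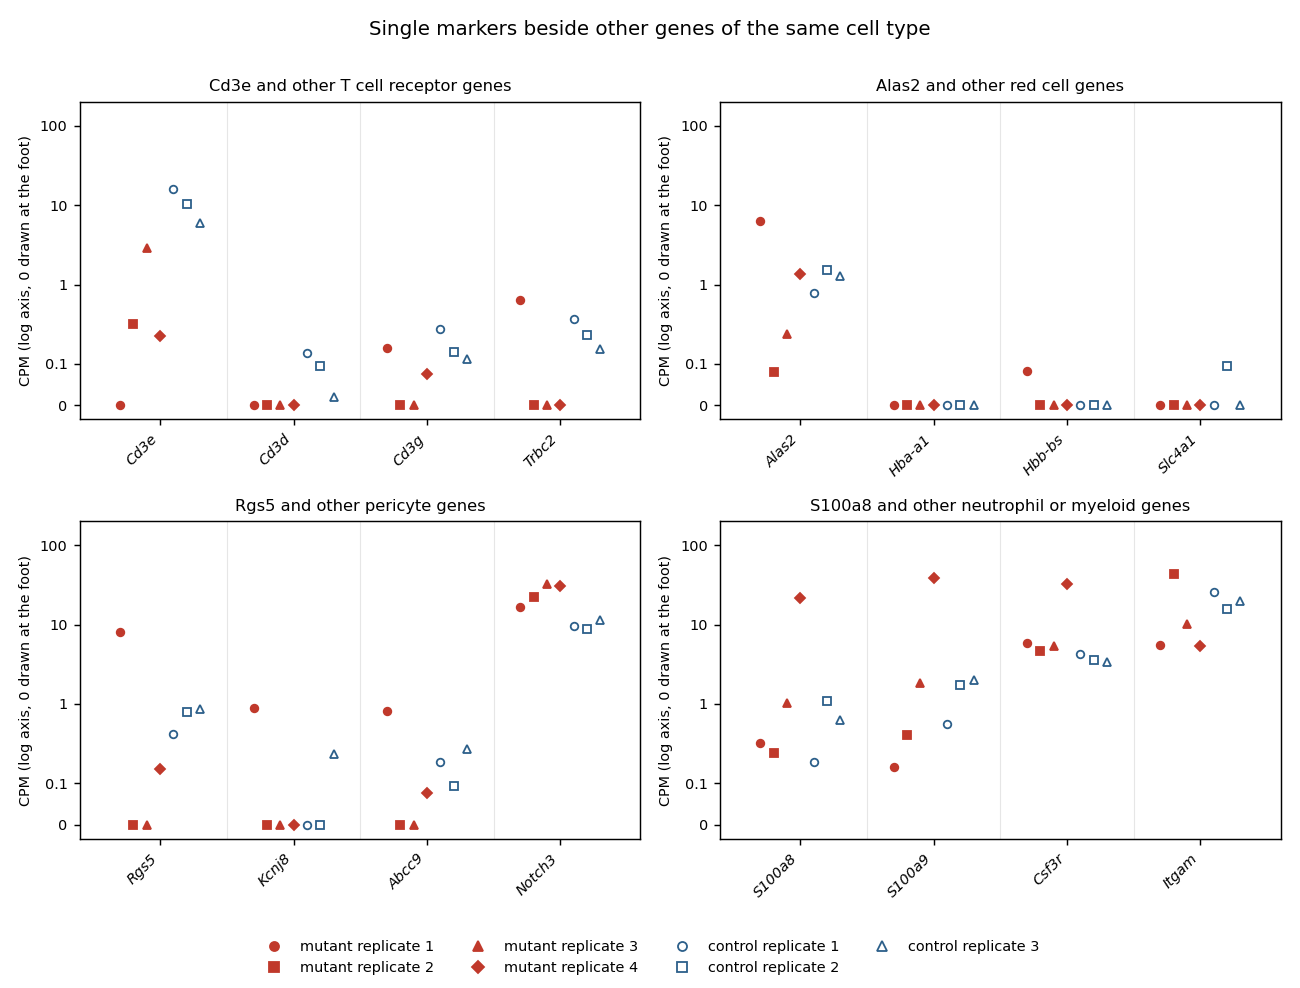
CPM in each library, on a log axis with 0 drawn at its foot, of Cd3e, Alas2, Rgs5 and S100a8 beside other genes of the same cell types, with filled symbols for mutants and open ones for controls. Cd3e is higher than Cd3d, Cd3g and Trbc2 in every control, and Alas2 and Rgs5 are highest in mutant 1. S100a8, S100a9 and Csf3r are all highest in mutant 4, where Itgam is about as low as in mutant 1.

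Over all 89 further non-epithelial genes, 60 could be tested, of which 2 fell (3.33%), Twist2 and Bnc1, and 2 rose (3.33%), Notch3 and Flt1, beside 6.18% and 5.37% of all tested genes. DESeq2 gave an adjusted p for 57 and called 8 lower (14.0%), among them the muscle gene Smtn, and 3 higher (5.26%), among them the immune gene Cd53, beside 11.3% and 12.4% of all genes. None of the 4 calls held against every omission of 1 library. Of these genes 0 fell without any 1 of the 3 controls, and 0 rose without any library other than mutant 1. Calls were lost among all tested genes too. With all libraries 1687 changed, against 133 to 169 without a control and 629 to 1009 without mutant 2, 3 or 4. The lost calls therefore do not set these 4 genes apart. The median log2 fold change of the 60 tested genes was -0.40, beside -0.65 for the tested markers and 0.06 for all tested genes.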

How the data were processed

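Uterine cells were selected magnetically with an EpCAM antibody and strand-specific mRNA libraries were sequenced, per the labels' protocols. For each of 7 libraries the authors deposited whole-number STAR counts per gene that are not normalized. The submitters' processing notes name cutadapt, Trim Galore, FastQC, STAR, DESeq2 and mm10, without versions. The authors also deposited a table with log2 fold changes and adjusted p-values.

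Reverse-stranded counts were used (94.8% to 95.6% of both strands). Reads without a gene stayed out of library sizes (10.5% to 14.7% of a library had no feature and 0.827% to 1.29% were ambiguous). GENCODE M21 names matched 53274 of 53379 identifiers. Genes kept by filterByExpr were tested in R 4.3.3 in edgeR 4.0.16 by a two-sided quasi-likelihood F test (scaled by TMM, genotype only, Benjamini-Hochberg adjustment over 14610 genes, threshold 0.05), which was tested on simulated counts. In those counts the test called 40.67% of 4-fold changes and 75.33% of 8-fold changes. A marker that did not pass may therefore still differ. CPM is per 1000000 gene reads. RPKM uses merged exons of all transcripts. Exons were also searched for 50-base words shared with other genes. DESeq2 1.42.0, other scalings, no filter, unstranded counts, the replicate number as a term and each library left out were tried. Markers were searched in the 4 mutants for a library far from the others.

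Mutants are separate mice and controls are pools, and p-values reflect only how much these mice and pools vary. The members and lists were chosen with earlier results of these data known. All 40 markers are named. Values in every library are given for markers past the threshold and the most abundant of each cell type. From further lists, up to 3 genes that passed and averaged 1 CPM or more are given, or else the most abundant. Other markers or genes shown with values were chosen after those were seen. The values of 1 further listed gene are not reported here.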

Additional observations from a re-analysis of the deposited data

Results flagged for a closer look

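In 39 markers and 6 summed levels, each mutant library was compared with the other 3, and 7 markers had a library far from the rest. Chance gives about 1 in 20 for independent, normally distributed values. Low counts are skewed and markers of a cell type vary together, so that rate does not hold for them. Mutant 1 stood far above the others for Hand2 (1.61 CPM), Rgs5 (8.04 CPM) and Ovgp1 (125 CPM). Mutant 4 stood far above the others for Msln (12.2 CPM) and S100a8 (21.6 CPM). Cd3e was highest in mutant 3 (2.88 CPM) and Itgam in mutant 2 (43.5 CPM).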

How the results depend on the processing

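Of all tested genes 1687 changed. The count was 2734 with total-count scaling (2202 of them higher, beside 784 of 1687), 3423 with DESeq2, 1057 with no filter, and 133 to 4403 when 1 library was left out. Markers lower numbered 2, and 4 with DESeq2 (adding Msln and Cd3e), 4 with unstranded counts (adding Tagln and Egfl7) and 1 to 9 when 1 library was left out, while 0 rose under every alternative. Replicate numbers did not pair the libraries (correlations of deviations -0.02, -0.36 and 0.16), and with the replicate block 2 genes changed and 0 markers were lower.

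Signs of some fold changes turned. With total-count scaling Vcan was 0.11, Cnn1 0.029, Cspg4 0.13, Tek 0.14, Egfl7 0.14, Lrrn4 0.23 and Lyz2 0.31. With upper-quartile scaling Lrrn4 was 0.0076 and Lyz2 0.11, and with unstranded counts Lyz2 was 0.018. With the replicate block Postn was -1.06, Rgs5 -1.60, S100a8 -0.47, Lyz2 0.12 and Alas2 -1.34. Leaving out 1 library gave -0.67 to 0.025 for Vcan, -0.32 to 0.90 for Postn, -1.88 to 0.13 for Cnn1, -0.62 to 0.13 for Tek, -0.48 to 0.091 for Egfl7, -0.49 to 0.24 for Lrrn4, -0.20 to 0.32 for Adgre1, -0.027 to 0.41 for Csf1r, -0.54 to 3.39 for S100a8, -0.12 to 0.14 for Lyz2 and -1.47 to 0.86 for Alas2. The cause was not tested. Summed log2 differences were -0.33 for fibroblast genes per epithelial read, -0.073 for immune genes and -0.48 for all markers with TMM-scaled sizes, and 0.84 and 0.42 per epithelial read.

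Depth limits the lowest markers, such as Rgs5, Fabp4, Hand2, Emcn and Actg2, which had mutant libraries under the floor of 3 reads.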
